A study of Rattus norvegicus with 8 samples.

Results

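The transforming growth factor β (TGF-β) system of the Achilles tendon was followed through 10 genes: the ligand genes *Tgfb1*, *Tgfb2*, and *Tgfb3*, the receptor genes *Tgfbr1*, *Tgfbr2*, and *Tgfbr3*, and the genes of the latent TGF-β binding proteins, *Ltbp1*, *Ltbp2*, *Ltbp3*, and *Ltbp4*. They were picked by gene symbol, and each symbol matched 1 of the 32883 genes in the tables. All 10 were among the 13937 genes with enough reads to be tested, and none had fewer than 81 reads in any rat. RNA came from the right Achilles tendons of wild-type male Sprague-Dawley rats aged 8 to 10 weeks. The 4 rats of the running group were killed 12 hours after a single uphill treadmill run of 1 hour (12 hours p.r.). The 4 rats of the control group (NC) rested in their cages and were killed at the same time. Each rat gave 1 library of polyadenylated mRNA from whole tendon, so a lower value can mean fewer cells of a type or less RNA per cell, and these cannot be told apart.

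TGF-β is secreted as a dimer that stays bound to its own propeptide, and in this latent form it cannot reach its receptors. Most latent complexes are tied to the matrix by a latent TGF-β binding protein and are opened by integrins, proteases, or thrombospondin. Freed ligand binds the type II receptor TGFBR2, which switches on the type I receptor kinase TGFBR1, and this phosphorylates SMAD2 and SMAD3, which enter the nucleus with SMAD4. In tendon the pathway is known for the recruitment and upkeep of tendon progenitors and for the induction of scleraxis (*Scx*), a tendon transcription factor.

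Read counts on genes totaled between 7350509 and 12951397 per rat. Expression of a gene is given as CPM (read counts relative to the library size, scaled by TMM factors). All 8 tenocyte markers were detected in every rat. 12 hours p.r. replicate 3 stood apart, with the lowest summed tenocyte markers (16273 CPM, the others 27363 to 48543) and by far the highest summed skeletal muscle markers (53928 CPM, the others 1286 to 9603). This rat had the lowest level of its group for *Tgfb1*, *Tgfb3*, *Ltbp2*, *Ltbp3*, and *Ltbp4*. Cartilage and bone markers summed to 1273 CPM in NC replicate 3 and 442 CPM in 12 hours p.r. replicate 1, while the other 6 rats had 4.05 to 17.4 CPM. NC replicate 3 had the highest level of its group for 7 of the 10 genes. The results below are therefore also given without these rats where that altered a statement.

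None of the 10 genes differed between the groups after adjustment over all genes tested (quasi-likelihood test of edgeR, Benjamini-Hochberg method, lowest adjusted p = 0.432). Across the transcriptome the same test called 1 gene, 0.00718% of those tested. The Wald test of DESeq2, which called 0.694% of 13825 genes after adjustment, called none of the 10 either. By this test *Tgfb2*, *Tgfb3*, and *Tgfbr3* had an unadjusted p under 0.05, as did 6.5% of 20945 genes, a wider set than that tested with edgeR. At an unadjusted p under 0.05 in the edgeR test, 2 of the 10 genes stood out, *Tgfb2* and *Tgfbr3*, both with less mRNA at 12 hours p.r. The background at this threshold was 9.51% of all genes tested (4.08% for lower expression alone). These were also the 2 genes whose groups did not overlap, a pattern shown by 6.06% of all genes (2.55% for lower expression alone). The log2 fold changes (log2FC, 12 hours p.r. over NC, with SE the standard error) of the 10 genes had a median of −0.09, with 4 above and 6 below 0, whereas the median over all genes tested was 0.02 and 54.2% of them were above 0.

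**Figure D1:**
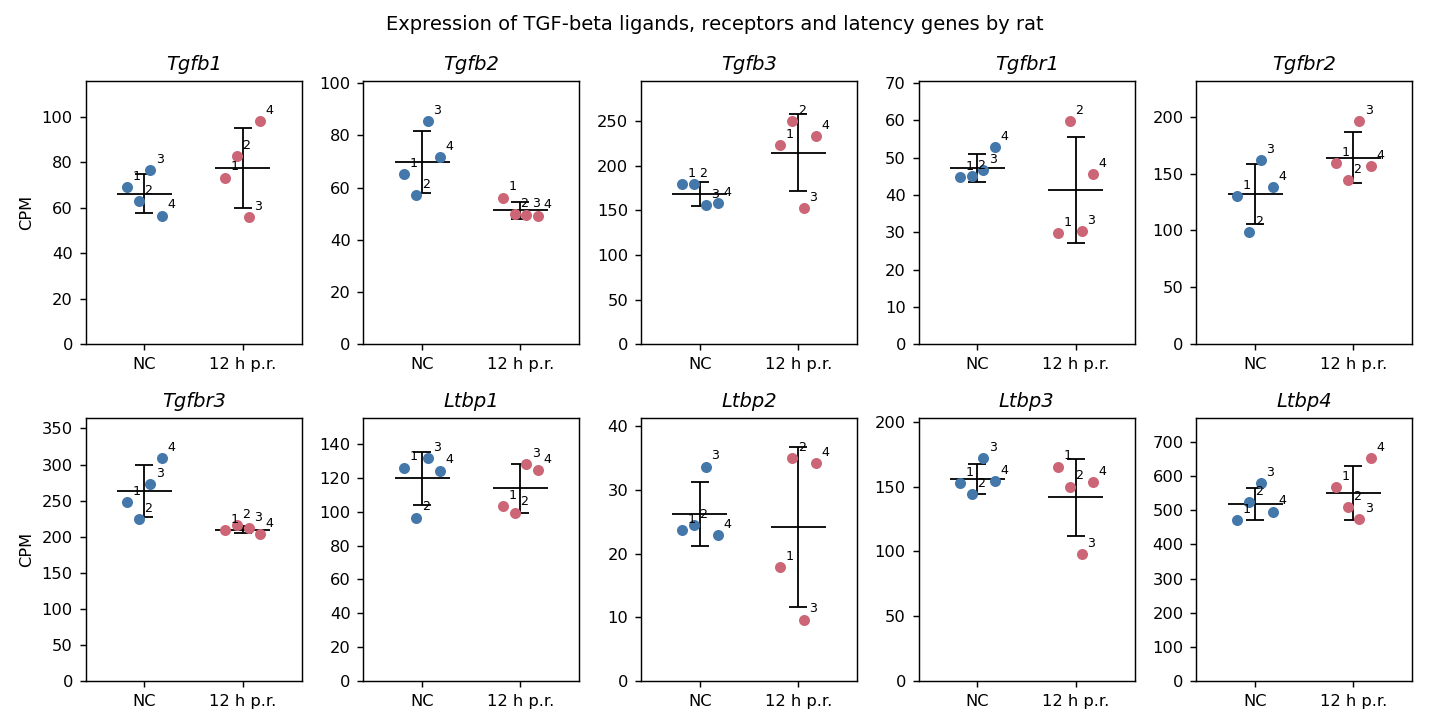
Expression (CPM) of each of the 10 genes in the 4 NC rats (blue) and the 4 rats at 12 hours p.r. (red). Points are rats with their replicate number, and the bars give the mean ± SD. In the *Tgfb2* and *Tgfbr3* panels the red points lie below every blue point, while in the other 8 panels the groups overlap.

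The ligands did not lean the same way. *Tgfb2* encodes the isoform that binds the type II receptor poorly without a co-receptor. Its level was 56.2, 49.9, 49.6, and 49.3 CPM in 12 hours p.r. replicates 1 to 4, and 65.2, 57.1, 85.4, and 71.7 CPM in NC replicates 1 to 4. The running rats were close to each other, and the highest of them was just under the lowest NC rat. The means were 51.3 ± 3.29 CPM (n = 4, SD) and 69.9 ± 11.9 CPM (n = 4, SD), a log2FC of −0.45 (SE 0.12, edgeR adjusted p = 0.432). The exact permutation test over the 70 splits of the rats gave p = 0.0286 (2-sided), the smallest that 4 rats against 4 allow. In all 20 alternative fits, including each that left out a rat, *Tgfb2* was lower at 12 hours p.r. with an unadjusted p under 0.05, and in none was the adjusted p under 0.132. The log2FC ran from −0.53 (without NC replicate 2) to −0.34 (without NC replicate 3), and was −0.39 without both rats high in cartilage and bone markers.

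*Tgfb3*, the isoform tied to scar-poor healing and to tendon formation in the embryo, was the most abundant ligand transcript in every rat. The running rats had 223, 250, 152, and 233 CPM and the NC rats 180, 180, 156, and 158 CPM, in the order of their replicate numbers. Of the running rats, 3 were above every NC rat, and replicate 3 was below all of them. The means of 215 ± 43.0 CPM (n = 4, SD) at 12 hours p.r. and 168 ± 13.1 CPM (n = 4, SD) in the NC group gave a log2FC of 0.35 (SE 0.16, edgeR adjusted p = 0.529). The exact permutation test gave p = 0.143. Without 12 hours p.r. replicate 3, the log2FC was 0.48 with an unadjusted p of 0.0013 and an adjusted p of 0.331 (edgeR). This was the only 1 of the 8 fits without a rat with an unadjusted p under 0.05, as were 4 of the 20 alternative fits in all. The log2FC was 0.27 without 12 hours p.r. replicate 2 (edgeR unadjusted p = 0.136). It was 0.29 without both rats high in cartilage and bone markers (edgeR unadjusted p = 0.188).

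*Tgfb1*, the isoform best known from platelets, leukocytes, and fibrosis, had 73.3, 82.7, 56.1, and 98.1 CPM at 12 hours p.r. and 69.1, 63.0, 76.4, and 56.6 CPM in the NC group. The NC range lay within that of the running rats, and the lowest of all 8 values was again in 12 hours p.r. replicate 3. The log2FC was 0.23 (SE 0.17, edgeR adjusted p = 0.708). Without that rat it was 0.35 (edgeR adjusted p = 0.415), and without 12 hours p.r. replicate 4, the highest rat, it was 0.09 (edgeR adjusted p = 0.885).

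To show the DNA upstream of the ligand and receptor genes with the clearest separation between the groups, and of *Tgfb3*, which leaned the other way from *Tgfb2*, the 250 bases before the RefSeq gene start are printed 5′ to 3′ on the strand of the gene. They come from the GRCr8 assembly, a later build than the Rnor_6.0 used for the counts. All 10 genes matched a RefSeq promoter window. Capitals mark the match to the E-box CACGTG, the core site of many basic helix-loop-helix factors.
Tgfb2 (chr13:100792686-100792935, − strand): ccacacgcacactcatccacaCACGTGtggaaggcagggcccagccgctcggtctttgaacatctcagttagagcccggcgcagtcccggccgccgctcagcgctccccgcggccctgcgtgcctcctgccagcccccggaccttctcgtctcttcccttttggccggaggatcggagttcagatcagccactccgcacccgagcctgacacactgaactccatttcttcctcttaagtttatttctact
Tgfb3 (chr6:111456947-111457196, − strand): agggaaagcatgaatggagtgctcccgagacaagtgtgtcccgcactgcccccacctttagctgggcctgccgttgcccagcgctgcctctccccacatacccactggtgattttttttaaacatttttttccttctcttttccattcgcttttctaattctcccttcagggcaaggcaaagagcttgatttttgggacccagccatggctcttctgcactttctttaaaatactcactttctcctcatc
Tgfbr3 (chr14:2634044-2634293, + strand): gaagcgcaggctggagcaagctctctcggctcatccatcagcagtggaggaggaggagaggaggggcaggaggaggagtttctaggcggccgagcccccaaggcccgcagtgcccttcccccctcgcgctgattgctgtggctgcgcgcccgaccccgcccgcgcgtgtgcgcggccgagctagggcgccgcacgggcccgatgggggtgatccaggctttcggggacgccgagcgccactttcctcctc

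The windows were searched on both strands for the SMAD box CAGAC, the E-box CACGTG, the cAMP response element TGACGTCA, the AP-1 site TGANTCA, the TEAD site CATTCC, and the TATA box TATAAA. The *Tgfb2* window held the only E-box among the 10 genes, beginning 229 bases before the start, and 5.59% of the 33469 rat windows of this length hold one. The windows of *Tgfb3* and *Tgfbr3* held none of the 6 motifs, which says only that these letters are not in these 250 bases. The SMAD box was in the windows of *Ltbp1* and *Ltbp2* alone among the 10 genes (2 of 10), and 42.9% of all windows hold it. The cAMP response element was in the window of *Ltbp1* alone among them, beginning 108 bases before the start, against 1.59% of all windows. The AP-1, TEAD, and TATA letters, held by 6.34, 12.1, and 12.9% of all windows, were in 0 of the 10.

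Among the receptors, *Tgfbr3* was the gene with separated groups. It encodes betaglycan, a co-receptor without a kinase that hands ligand, TGF-β2 above all, to the signaling receptors. The running rats had 209, 216, 211, and 204 CPM, and the NC rats 247, 225, 273, and 309 CPM. The running rats were nearly level with each other, whereas the NC rats were spread over a wider range that began above them. The means were 210 ± 4.91 CPM (n = 4, SD) and 263 ± 36.2 CPM (n = 4, SD), a log2FC of −0.33 (SE 0.12, edgeR adjusted p = 0.452; exact permutation p = 0.0286). The unadjusted p was under 0.05 in 17 of the 20 alternative fits. It was 0.0549 without NC replicate 4, the highest rat, and 0.0815 without both rats high in cartilage and bone markers.

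*Tgfbr2* encodes the ligand-binding type II kinase. It was at 159, 144, 196, and 157 CPM in the running rats and at 130, 98.2, 162, and 138 CPM in the NC rats. NC replicate 3 lay within the running group, and the highest value was in 12 hours p.r. replicate 3. The log2FC was 0.31 (SE 0.16, edgeR adjusted p = 0.581). When 1 rat was left out it ran from 0.19 (without NC replicate 2) to 0.42 (without NC replicate 3, edgeR adjusted p = 0.511), and it was 0.44 without both rats high in cartilage and bone markers. The unadjusted p was under 0.05 in these last 2 fits.

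*Tgfbr1*, the gene of the type I kinase that phosphorylates the receptor SMADs, split the running group. Replicates 1 and 3 had 29.9 and 30.2 CPM and replicates 2 and 4 had 59.8 and 45.6 CPM, while the 4 NC rats stayed between 44.7 and 52.8 CPM. The log2FC was −0.19 (SE 0.21, edgeR adjusted p = 0.802). It was −0.42 without 12 hours p.r. replicate 2 (edgeR adjusted p = 0.463), and −0.07 without replicate 1 or without replicate 3 of that group.

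**Figure D2:**
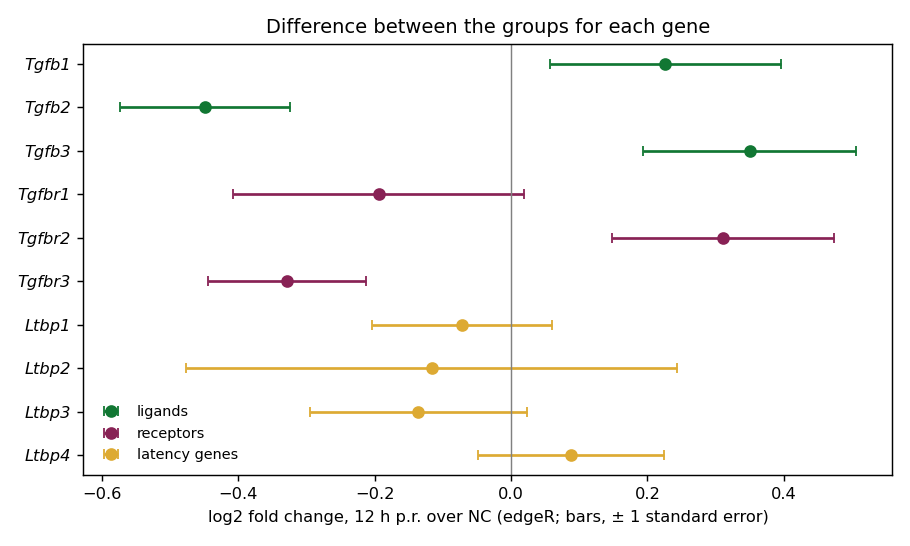
Log2 fold change of each gene, 12 hours p.r. over NC, from edgeR, with bars of 1 standard error. *Tgfb2* (−0.45) and *Tgfb3* (0.35) lie on opposite sides of 0, as do *Tgfbr3* (−0.33) and *Tgfbr2* (0.31), while the 4 latency genes lie between −0.14 and 0.09.

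The latency genes lay near 0. *Ltbp4*, whose product is also needed for elastic fiber assembly, had 474 to 653 CPM in the running rats and 471 to 580 CPM in the NC rats, a log2FC of 0.09 (SE 0.14). *Ltbp1*, which encodes the archetypal carrier of the latent complex, had 99.6 to 128 CPM and 96.6 to 132 CPM, a log2FC of −0.07 (SE 0.13). The groups thus shared most of their range for both genes. *Ltbp3*, a carrier with known roles in bone and teeth, had 166, 150, 98.2, and 154 CPM at 12 hours p.r. and 144 to 172 CPM in the NC group. Its log2FC of −0.14 (SE 0.16) came with 1 low value, that of 12 hours p.r. replicate 3, and without this rat it was 0.0047.

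*Ltbp2* encodes a microfibril protein that, unlike its relatives, does not bind latent TGF-β. It varied most, from 9.64 CPM in 12 hours p.r. replicate 3 and 17.9 CPM in replicate 1 to 35.0 and 34.2 CPM in replicates 2 and 4, with the NC rats at 22.9 to 33.7 CPM. The running group thus held both the highest and the lowest values. Its log2FC was −0.12 (SE 0.36) and turned to 0.15 without 12 hours p.r. replicate 3. The edgeR adjusted p of the 4 latency genes was between 0.816 and 0.939.

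Levels were compared between genes as FPKM, the deposited values that divide the counts by gene length and depth. The order of the mean FPKM over the 8 rats was *Ltbp4* (99.6), *Tgfb3* (72.7), *Tgfbr2* (52.9), *Tgfbr3* (39.0), *Ltbp3* (33.7), *Tgfb1* (33.4), *Ltbp1* (18.6), *Tgfb2* (14.0), *Tgfbr1* (7.53), and *Ltbp2* (3.74). *Ltbp4* was above 94.3% and *Ltbp2* above 27.7% of the genes tested. Neighbors in this order had overlapping ranges over the rats, with 2 exceptions, *Tgfb1* over *Ltbp1* and *Tgfb2* over *Tgfbr1*. *Ltbp3* and *Tgfb1* were the least distinct pair, with *Ltbp3* the higher in 5 of 8 rats. *Tgfb3* led the ligands and *Ltbp4* the latency genes in every rat, whereas *Tgfbr2* was above *Tgfbr3* in 6 of 8 rats.

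The opposite leanings within a role were visible as a different make-up. Of the summed ligand FPKM, *Tgfb2* made up 9.8, 7.9, 12.0, and 7.8% in 12 hours p.r. replicates 1 to 4 and 13.0, 11.9, 17.2, and 16.1% in NC replicates 1 to 4. The means were 9.39 ± 1.97% (n = 4, SD) and 14.5 ± 2.49% (n = 4, SD), and the groups overlapped only through 12 hours p.r. replicate 3 and NC replicate 2. *Tgfb3* made up 62.8 ± 2.45% and 57.7 ± 4.22% (n = 4 each, SD), and *Tgfb1* 27.8 ± 2.45% and 27.7 ± 2.40%. The difference in the *Tgfb3* share was 5.11 percentage points with all rats, 3.12 without NC replicate 3, and 2.63 without both rats high in cartilage and bone markers. The ratio of *Tgfb3* to *Tgfb2* FPKM was 6.92 ± 1.43 at 12 hours p.r. and 4.09 ± 0.961 in the NC group (n = 4 each, SD), with overlapping groups.

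For the receptors, the shares of *Tgfbr3* and of *Tgfbr2* did not overlap between the groups. *Tgfbr3* made up 35.6, 36.5, 31.6, and 34.5% of the summed receptor FPKM in the running rats and 43.0, 46.4, 40.5, and 46.6% in the NC rats. *Tgfbr2* made up 53.0 to 63.7% and 44.0 to 52.3%. The ratio of *Tgfbr2* to *Tgfbr3* FPKM was 1.66, 1.45, 2.01, and 1.67 in the running rats and 1.14, 0.949, 1.29, and 0.971 in the NC rats. Betaglycan mRNA was thus below that of the type II receptor in every running rat. In the controls it was below it in replicates 1 and 3 and just above it in replicates 2 and 4. The summed receptor FPKM was 100 ± 6.82 and 98.8 ± 14.5 (n = 4 each, SD). These shares were not tested, because they were formed from genes whose separation was already known. The difference in the *Tgfbr3* share was −9.52 percentage points with all rats, −8.54 without 12 hours p.r. replicate 3, and −10.7 without NC replicate 3.

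**Figure D3:**
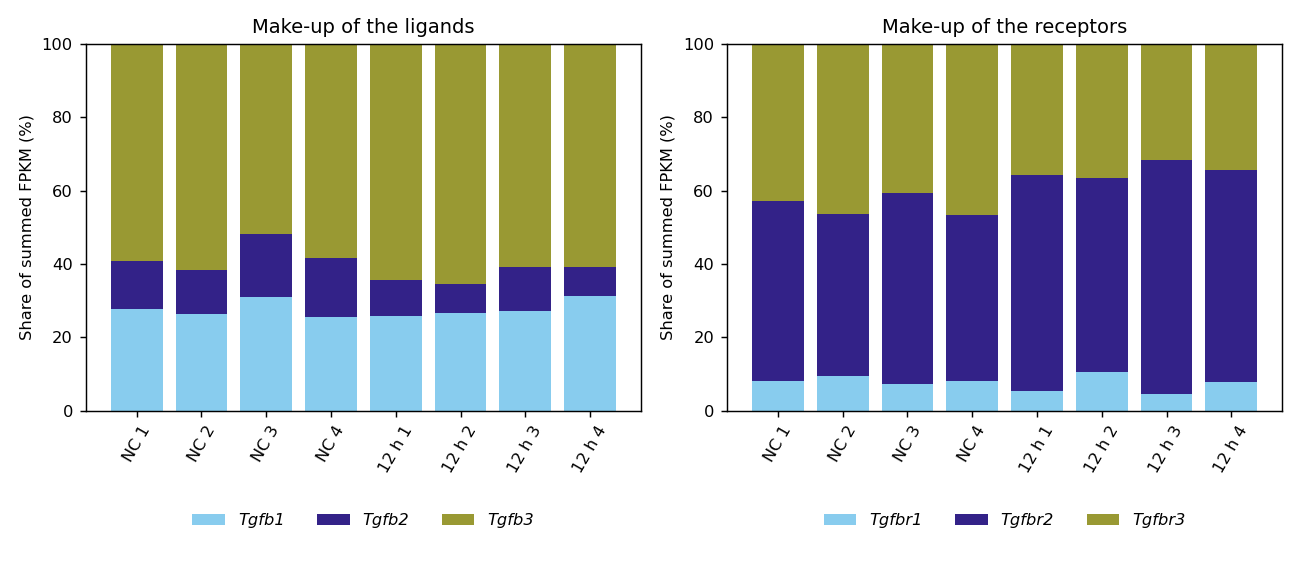
Share (%) of each gene in the summed FPKM of the 3 ligand genes (left) and the 3 receptor genes (right), with 1 stacked bar for each rat. The *Tgfbr3* section is 40.5 to 46.6% high in the NC rats and 31.6 to 36.5% in the running rats.

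The summed FPKM of the 4 latency genes was 155 ± 12.2 in the NC group and 156 ± 20.4 at 12 hours p.r. (n = 4 each, SD). That of the 3 ligands was 111 ± 5.66 and 129 ± 23.4. With *Ltbp2* left out of the latency sum, that sum divided by the ligand sum was 1.36 ± 0.107 and 1.20 ± 0.154, with overlapping groups.

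Marker levels moved with some of the genes. Over the 8 rats, the mean log2 level of the 8 tenocyte markers had a Pearson r of 0.92 with *Tgfb1*, 0.83 with *Tgfb3*, 0.74 with *Ltbp2*, 0.71 with *Ltbp4*, and 0.70 with *Ltbp3*. It had an r of −0.15 with *Tgfb2* and −0.39 with *Tgfbr3*. These values describe 8 libraries that share their scaling and 1 rat with a low tenocyte level. The summed tenocyte markers were 16273 to 48543 CPM at 12 hours p.r. and 27363 to 40831 CPM in the NC group. Their mean log2 level was 8.62 in 12 hours p.r. replicate 3, 9.72 to 9.86 in the other running rats, and 8.88 to 9.53 in the NC rats. Of the 8 markers, 5 had a log2FC above 0 and 3 below (median, 0.47). By the mean log2 level, every running rat except replicate 3 was thus above every NC rat. By the summed CPM, 12 hours p.r. replicate 2 (37956.5) lay within the NC range. With the tenocyte level as a covariate, the log2FC was 0.07 for *Tgfb1* (0.23 without it), 0.21 for *Tgfb3* (0.35 without it), −0.47 for *Tgfb2*, and −0.31 for *Tgfbr3*. In that fit *Ltbp2* (−0.58) and *Ltbp3* (−0.29) also had an unadjusted p under 0.05, with an edgeR adjusted p of 0.418 for each. The skeletal muscle level as the covariate instead gave 0.23 for *Tgfb1*, 0.36 for *Tgfb3*, −0.45 for *Tgfb2*, and −0.31 for *Tgfbr3*. For *Tgfb3* the edgeR unadjusted p was then 0.021 and the adjusted p 0.437. The smaller values for *Tgfb1* and *Tgfb3* thus came with the tenocyte covariate and not with the muscle covariate.

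*Tgfb2* had an r of 0.59 and *Ltbp3* of 0.58 with the mean of the cartilage and bone markers, whose part in either level was not tested. *Tgfbr3* and *Tgfb2* had an r of 0.62 and 0.58 with the mean of the 8 leukocyte markers, all of them detected in every rat. This was not particular to these genes. *Ltbp3* (0.69), *Tgfbr1* (0.61), and *Ltbp2* (0.59), whose groups overlapped, had an r of like size. The leukocyte markers summed to 567 to 2594 CPM at 12 hours p.r. and 804 to 3784 CPM in the NC group. Of their log2FC values, 8 of 8 were below 0 (median, −0.53), with 0 of 8 at an unadjusted p under 0.05 (edgeR). Their part in the lower *Tgfb2* and *Tgfbr3* levels was not tested. *Tgfbr2* had an r of 0.65 and *Tgfbr1* of −0.72 with the 7 endothelial markers. These summed to 1272 to 1562 CPM at 12 hours p.r. and 1338 to 1455 CPM in the NC group, and their part in the *Tgfbr2* level was not tested either.

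**Figure D4:**
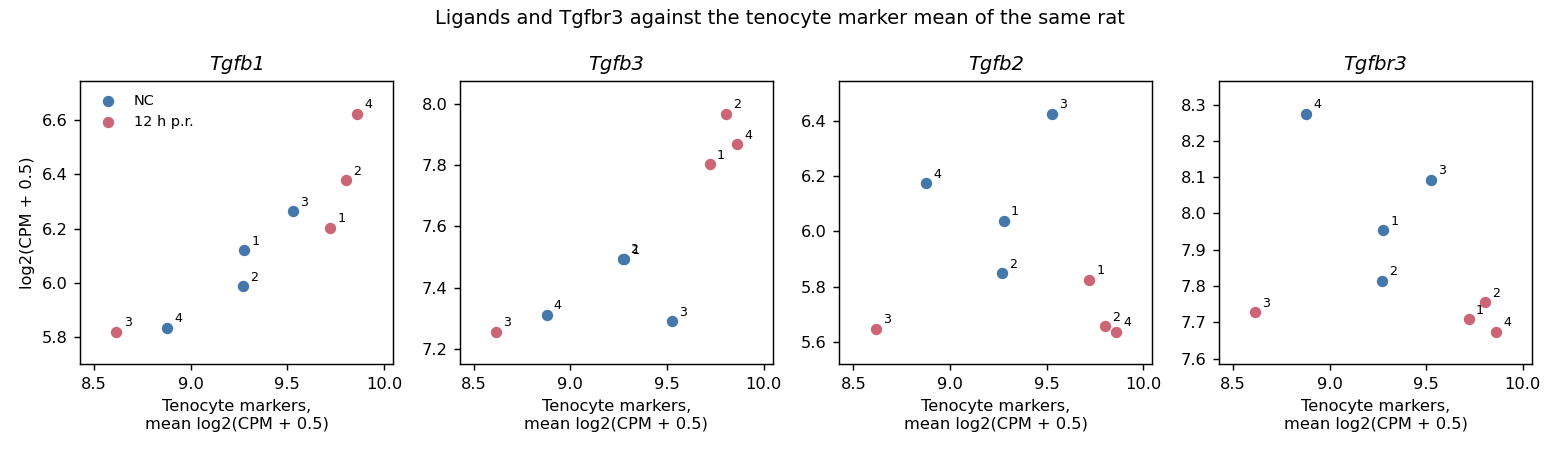
Log2(CPM + 0.5) of *Tgfb1*, *Tgfb3*, *Tgfb2*, and *Tgfbr3* against the mean log2(CPM + 0.5) of 8 tenocyte markers in the same rat, with NC rats in blue and 12 hours p.r. rats in red. *Tgfb1* (r = 0.92 over 8 rats) lies higher where the marker level is higher. The running rats are at marker levels of 8.62 and 9.72 to 9.86 and the NC rats at 8.88 to 9.53.

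The other genes of the pathway were followed in 4 lists with 49 genes in all, each of which was tested. None passed the edgeR test after adjustment. At an unadjusted p under 0.05, 6 were higher and 3 lower at 12 hours p.r., against 9.51% of all genes (5.44% higher, 4.08% lower), and the median log2FC was 0.03. Groups did not overlap for 7 of the 49, with the running rats above in 5 and below in 2, where 3.52% of all genes were above without overlap and 2.55% below.

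Of the 12 genes for latency and activation, 1 had an unadjusted p under 0.05. This was *Lrrc32*, which encodes GARP, a membrane anchor of latent TGF-β. It was at 107, 105, 129, and 111 CPM in the running rats and at 82.2, 73.3, 79.2, and 99.3 CPM in the NC rats, without overlap, with a log2FC of 0.43 (SE 0.12, edgeR adjusted p = 0.429). Of the 6 co-receptors and modulators, 1 did so as well. *Eng* encodes endoglin, a co-receptor abundant on endothelium and related to betaglycan. It was at 294, 239, 320, and 293 CPM in the running rats and at 195, 206, 218, and 192 CPM in the NC rats. The log2FC was 0.50 (SE 0.11, edgeR adjusted p = 0.385), and the Wald test of DESeq2 gave an adjusted p of 0.0083. The related co-receptor genes *Eng* and *Tgfbr3* thus lay on opposite sides of the controls, each without overlap. The summed endothelial markers were 1481, 1272, 1562, and 1509 CPM in the running rats and 1338 to 1455 CPM in the NC rats, so that 3 running rats were above every NC rat, and replicate 2, the lowest running rat for *Eng*, was below them. Of the 7 endothelial markers, 5 had a log2FC above 0 and 2 below (median, 0.09), from −0.40 for *Emcn* to 0.37 for *Cldn5*. The endothelial receptor gene *Tie1*, with a log2FC of 0.31, was the only one of these markers without overlap between the groups. The part of these markers in the level of *Eng* was not tested.

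Of the 15 genes of SMAD signaling, 2 were higher and 1 was lower at an unadjusted p under 0.05. *Smad6*, an inhibitory SMAD that acts mainly on the bone morphogenetic protein branch, had the clearest separation, with 9.28 to 11.5 CPM in the running rats and 5.18 to 6.75 CPM in the NC rats. Its log2FC was 0.87 (SE 0.15, edgeR adjusted p = 0.309), with a DESeq2 adjusted p of 0.0033. It rests on 55 to 123 reads per rat. *Tab1*, an adaptor of the kinase TAK1, had 36.9 ± 2.58 and 28.1 ± 2.63 CPM (n = 4 each, SD), a log2FC of 0.39. *Strap*, whose product holds SMAD7 at the receptor, had 76.4 ± 6.45 and 93.1 ± 6.07 CPM (n = 4 each, SD), a log2FC of −0.28. Groups did not overlap for these 3 genes. The signal-carrying SMADs overlapped between the groups, with log2FC values of −0.12 for *Smad2*, 0.03 for *Smad3*, and 0.16 for *Smad4*, and edgeR adjusted p values from 0.638 to 0.965.

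The 16 target genes gave 2 higher and 2 lower. *Ccn2*, which encodes connective tissue growth factor, was at 781 ± 319 CPM at 12 hours p.r. and 1456 ± 452 CPM in the NC group (n = 4 each, SD), a log2FC of −0.90 (SE 0.37, edgeR adjusted p = 0.498). Every running rat was below every NC rat, and the lowest value, 303 CPM, was in 12 hours p.r. replicate 3. Without this rat the log2FC was −0.63. *Postn*, the gene of the matrix protein periostin, had a log2FC of −0.82 (SE 0.33) with overlapping groups, and its unadjusted p was under 0.05 in 11 of the 20 alternatives. *Scx* was at 53.1 ± 7.34 and 34.7 ± 10.1 CPM (n = 4 each, SD) without overlap, a log2FC of 0.62 (SE 0.22, edgeR adjusted p = 0.452), and is also one of the tenocyte markers. *Tagln*, which encodes the actin-binding protein transgelin of contractile cells, had a log2FC of 0.34 (SE 0.15) with overlapping groups, and its unadjusted p was under 0.05 in 7 of the 20 alternatives. The 6 mural cell markers were all detected in every rat and summed to 1007 to 1172 CPM at 12 hours p.r. and 761 to 1098 CPM in the NC group, with 6 of 6 log2FC values above 0 (median, 0.33), and their part in the level of *Tagln* was not tested. *Smad7*, an inhibitory SMAD and a direct target of the pathway, overlapped between the groups, with a log2FC of −0.16 (edgeR adjusted p = 0.702).

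**Figure D5:**
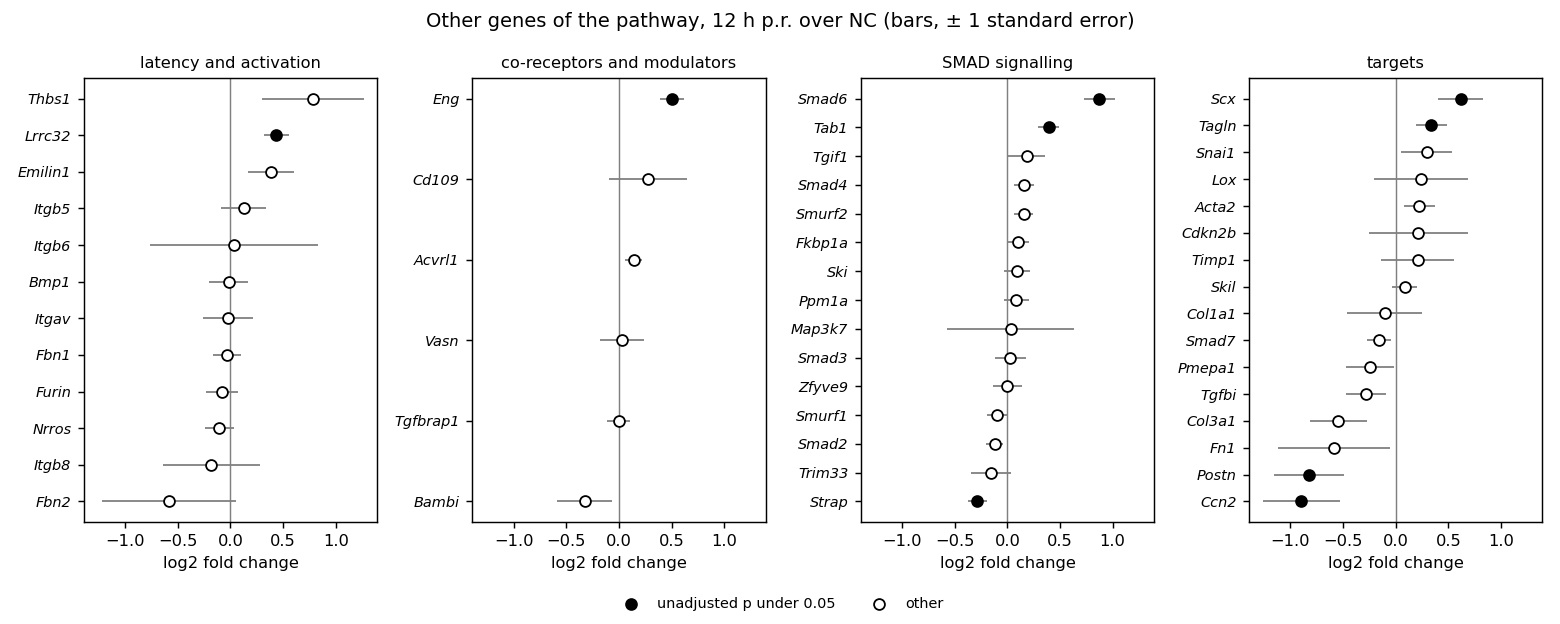
Log2 fold change, 12 hours p.r. over NC, of the 49 other genes of the pathway in 4 lists, with bars of 1 standard error (edgeR). Filled points have an unadjusted p under 0.05: 6 lie above 0, with *Smad6* (0.87) farthest, and 3 below, with *Ccn2* (−0.90) farthest.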

How the data were processed

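Messenger RNA of the right Achilles tendon was sequenced in 8 rats, with 1 library per rat. Replicate numbers belong to different rats in each group. The authors aligned reads to Rnor_6.0 with HISAT2 2.1.0 and deposited whole-number counts per Ensembl gene from featureCounts 1.6.3, without normalization; whether counting used the strand is not given in the sources used here. FPKM were also deposited by the authors, and per rat they are scaled by the DESeq2 size factor. The deposited table of the authors' own comparison (log2 fold changes, p-values) was not used.

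Counts were filtered (filterByExpr), scaled by TMM, and tested with the quasi-likelihood test of edgeR 4.0.16 in R 4.3.3, with adjustment over 13937 genes. Alternatives were DESeq2 1.42.0, limma 3.58.1 on FPKM, other scalings and filters, a replicate block, marker covariates, and fits without each rat. Exact permutation tests used log2(CPM + 0.5).

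The genes and lists were chosen with earlier results of these data known. All 10 genes are named, with pathway genes at an unadjusted p under 0.05 or without overlap, and *Smad2*, *Smad3*, *Smad4*, *Smad7*, and *Ccn2*. The 3 genes most like each of 3 members, those with the smallest p in each role, are also named. 1 further target gene is not reported here. Markers *Myh4*, *Myh2*, *Atp2a1*, and *Pecam1* were not analysed here.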

Additional observations from a re-analysis of the deposited data

Results flagged for a closer look

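In 9 of 68 groups of 4 values, 1 rat lay far from the rest of its group by Dixon's criterion, and chance gives about 3.4. For *Tgfb2*, 12 hours p.r. replicate 1 was at 5.82 on the log2(CPM + 0.5) scale, above 5.64 to 5.66 in the other 3 running rats, a gap that is wide only because these were so close. The summed FPKM of the receptor genes was 110 in 12 hours p.r. replicate 3, against 95.7 to 97.2 in the rest of its group. That of the latency genes was 173 in NC replicate 3, against 147 to 151. In 12 hours p.r. replicate 3, *Smad6* was at 3.29 and *Ccn2* at 8.24 (log2(CPM + 0.5)), each the lowest of the group, and the mean of the tenocyte markers was 8.62, against 9.72 to 9.86. The mean of the cartilage and bone markers was 4.01 in 12 hours p.r. replicate 1 and 5.33 in NC replicate 3. The mean of the leukocyte markers was 5.29 in NC replicate 2, against 6.65 to 6.89 in the other NC rats.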

How the results depend on the processing

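No member had an adjusted p under 0.05 in any of the 20 alternatives. The number with an unadjusted p under 0.05 was 2 and became 4 with the tenocyte level as a covariate (*Tgfb2*, *Tgfbr3*, *Ltbp2*, *Ltbp3*). Without each rat in turn it ran from 1 (*Tgfb2*, without NC replicate 4) to 4 (*Tgfb1*, *Tgfb2*, *Tgfb3*, *Tgfbr3*, without 12 hours p.r. replicate 3). Over all genes, 1 had an edgeR adjusted p under 0.05, against 96 with DESeq2 and 0 with either limma fit, either marker covariate, the replicate block, the removal of NC replicate 3 with 12 hours p.r. replicate 1, and each fit without 1 rat (range, 0 to 0). At an unadjusted p under 0.05 the edgeR count was 1326, and it ran from 879 (without NC replicate 4) to 1580 when 1 rat was left out.

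The direction turned for 4 latency genes. *Ltbp1* was at 0.0198 and *Ltbp2* at 0.15 (log2 fold change) without NC replicate 3 and 12 hours p.r. replicate 1. Without each rat, *Ltbp1* ran from −0.16 to −0.01, *Ltbp2* from −0.35 to 0.15, *Ltbp3* from −0.22 to 0.0047, and *Ltbp4* from −0.0041 to 0.15. The cause was not tested.

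With the replicate number as a block, the members at an unadjusted p under 0.05 were *Tgfb2* and *Tgfbr2* (2 genes), *Tgfbr3* was no longer among them (adjusted p = 0.713, edgeR), and 974 of all genes were under 0.05. Same-numbered rats had correlations of their deviations from the group means between −0.20 and 0.13, and differently numbered rats between −0.31 and 0.34. Rats of the same number were thus not more alike than others. Such deviations sum to 0 within each group, so these few correlations cannot decide whether the numbers pair the rats. Of the TGF-β genes, *Ltbp2* had the fewest reads (81 in the lowest rat). Of the other pathway genes, *Fbn2*, *Itgb6*, *Cdkn2b*, and *Itgb8* had 2 to 12 reads in the lowest rat, so depth limits these most.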

Other observations

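The expression of some genes followed that of a TGF-β gene closely over the 8 rats, among 9540 genes with a mean of at least 10 CPM. For *Tgfb2* these were *Gpat4* (Pearson r = 0.96), *Il1rap* (0.95), and *Icoslg* (0.94). For *Tgfbr3* they were *Scn3a* (0.96), *Myef2* (0.95), and *Gpat4* (0.95). *Gpat4*, which encodes an acyltransferase of glycerolipid synthesis, was thus on both lists, with an edgeR log2 fold change of −0.12. *Tgfb2* and *Tgfbr3* themselves had an r of 0.86 over the 8 rats and of 0.62 after the group means were removed. For *Ltbp3* the closest genes were *Kdelr3* (0.98), which encodes a receptor that returns proteins to the endoplasmic reticulum, *Xrn2* (0.98), which encodes an exoribonuclease, and NEWGENE_621351 (0.98). These are the highest of many correlations over 8 libraries, which share their scaling and the group difference, and they are given as a description.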
